A study of Glycine max with 12 samples.

Results

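Soybean roots that met cadmium and the bacterium Oceanobacillus picturae together were compared with untreated roots, gene by gene. All roots were of Glycine max cultivar Williams 82. The comparison rests on 6 of the 12 RNA-seq libraries of the series, 3 labelled Cd+OP (cadmium, Cd, with the bacterium, OP) and 3 labelled control, and it covers the 30340 of 49128 genes whose FPKM averaged at least 1 over the 12 libraries. FPKM is fragments per kilobase of transcript, scaled to library size. The other 6 libraries, 3 with Cd alone and 3 with OP alone (control+OP), are set beside the members only to place their levels. All samples, controls too, carry a label of 70 mg/L Cd, which leaves the dose of each group unknown. No label gives plant age, exposure time or inoculation, or says that libraries are from different plants. The p-values therefore measure the spread between these libraries, which may be technical.

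Cadmium is a toxic metal without a known role in plants that enters roots through carriers of nutrient metals, binds thiol groups and disturbs respiration, water uptake and wall growth. Roots answer it with chelation by glutathione-derived peptides, antioxidant enzymes and changes in the wall. Roots short of oxygen split sucrose with sucrose synthase and regenerate NAD+ through pyruvate decarboxylase and alcohol dehydrogenase. Legume roots can also form nodules, in which leghaemoglobin carries oxygen to nitrogen-fixing bacteria.

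Of the 30340 genes, 18066 (59.5%) differed between Cd+OP and control by edgeR's quasi-likelihood test at a Benjamini-Hochberg adjusted p of 0.05, 9172 higher (30.2%) and 8894 lower (29.3%), and 12274 were not called. With scaling by library totals in place of TMM, a choice made after the data were seen, the split was 11060 higher and 7225 lower, and the median log2 fold change of all genes was 0.09 in place of 0.01. The split went the other way when any 1 control library was left out (7288 to 7356 higher and 9527 to 9545 lower) and when only genes with 5 FPKM or more were tested (4833 higher and 6569 lower). A difference of at least 2-fold was called for 3119 genes (10.3%), 1633 higher (5.38%) and 1486 lower (4.90%). In the comparisons that share libraries with it, the share of genes called at least 2-fold was 25.0% for Cd against control and 12.5% for control+OP against control. At any size, 76.2% and 61.8% were called. At least 2-fold, it was 19.7% for Cd+OP against Cd and 12.3% for Cd+OP against control+OP. The middle 90% of genes lay between log2 fold changes of -0.99 and 1.04 for Cd+OP against control and between -2.36 and 1.28 for Cd against control. FPKM did not overlap between the control and Cd+OP libraries for 19407 genes (64.0%). Across genes, Cd+OP libraries correlated with control libraries at 0.941 to 0.943 and with each other at 0.989 to 0.991, as a description. Total counts were 49904227 to 57693211 over the 12 libraries, ribosomal RNA genes held 0.296 to 0.706% of them, and TMM factors were 1.039 to 1.04 in Cd+OP and 0.9814 to 0.9834 in control. The lowest mean among the tested genes was 1.00017 FPKM and the highest among the 18788 left out was 0.99998.

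In this bulk tissue, fewer cells of a type and less RNA per cell cannot be told apart. The table pairs few genes with symbols, so the roles below are those of its Gene Ontology and KEGG terms. Coordinates are the table's, whose build the sources do not name, and relatives with nearly identical sequence may share reads.

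The 40 gene lists, built from annotation terms, did not move alike. With the median over all genes at 0.01, the median log2 fold change for Cd+OP against control was lowest for photosynthesis (-0.91), low oxygen and fermentation (-0.66), aquaporins (-0.61) and glycolysis (-0.47). It was highest for 5.8S ribosomal RNA (1.68) and nodulation (0.96). Members of these lists often passed the FPKM filter through the groups where they were high. Those were Cd and Cd+OP for 5.8S ribosomal RNA and control+OP for nodulation, so both medians are descriptions. The more frequent direction of call was the same under every alternative tried for 25 lists. For 15 it was not: antioxidant enzymes, auxin, cadmium response, cell division and ribosomal proteins turned with scaling by library totals and with limma. Sulfur, which had as many rises as falls, took a side under most alternatives. The others were autophagy, protease inhibitors, gibberellin, defense proteins, nutrient reservoir, iron balance, flavonoids, endodermis, and ABC and MATE transporters.

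**Figure D1:**
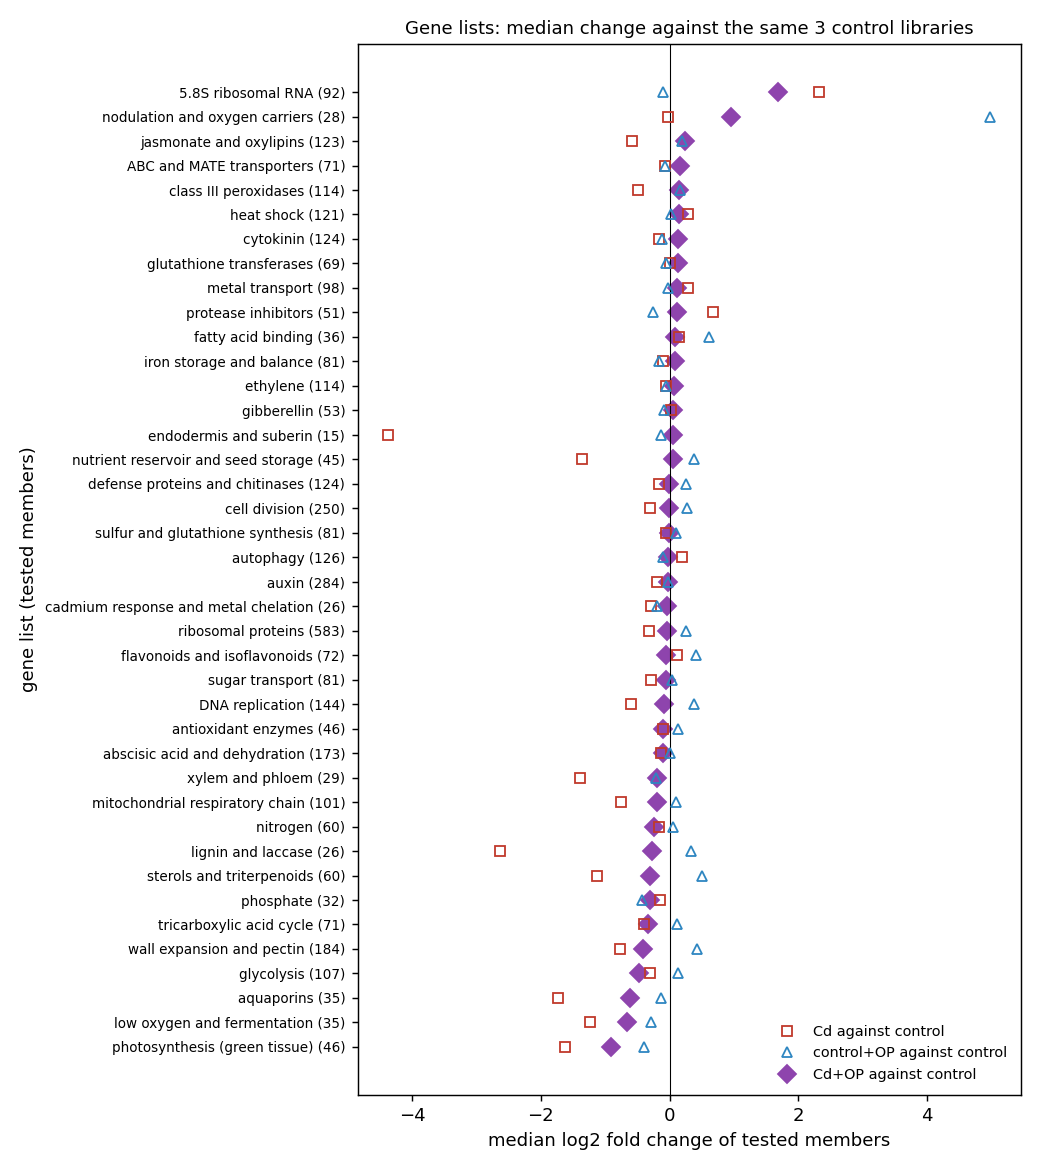
Median log2 fold change (x axis) of the tested members of 40 gene lists (y axis, number of tested members in parentheses) for Cd+OP against control (filled diamonds), Cd against control (open squares) and control+OP against control (open triangles), all against the same 3 control libraries. The diamonds lie between -0.91 and 1.68, and the endodermis and suberin square lies at -4.37 with its diamond at 0.06.

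Genes of alcoholic fermentation and low oxygen fell in Cd+OP roots. All 5 tested genes with the KEGG term for pyruvate decarboxylase, which opens the pathway from pyruvate to ethanol, fell, with log2 fold changes from -3.24 (GLYMA_03G055100) to -2.26 (GLYMA_07G153100), and all 3 tested genes of class-P alcohol dehydrogenase, which closes it, fell, from -3.15 (GLYMA_04G213900) to -1.64 (GLYMA_06G122600). Of 35 tested members of the low oxygen and fermentation list, 4 rose and 22 fell, and 1 of the rises and 15 of the falls were at least 2-fold, where 30.2% and 29.3% of all genes rose and fell and 5.38% and 4.90% did so at least 2-fold.

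The alcohol dehydrogenase gene GLYMA_04G213900 (chromosome 4, 48558152 to 48562318) stood at 272, 252 and 254 FPKM in the control libraries and 30.1, 30.97 and 30.9 in the Cd+OP libraries. Each Cd+OP library thus held far less than any control library, and the groups did not overlap. The log2 fold change was -3.15 ± 0.04 (SE, n = 3 against 3; edgeR adjusted p = 1.70e-26). With Cd alone its mean was 147 ± 5.74 FPKM (SD, n = 3) and with OP alone 12.8 ± 0.749, so Cd+OP lay between these single factors, with log2 fold changes of 1.19 ± 0.04 against OP alone and -2.33 ± 0.04 against Cd alone. GLYMA_06G122600, the most abundant of the 3, stood at 1266, 1198 and 1270.1 FPKM in the control libraries and 409, 423 and 427 in the Cd+OP libraries, and GLYMA_14G121200 at 169, 154 and 161 FPKM in the control libraries and 48.5, 43.7 and 49.2 in the Cd+OP libraries. Both sets are apart from control in every library. Their log2 fold changes were -1.64 ± 0.04 and -1.84 ± 0.04 (edgeR adjusted p = 2.24e-21 and 6.56e-22), and these 2 genes lie outside the naming rule and were chosen after their values were seen.

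Among pyruvate decarboxylases, GLYMA_13G231700 (chromosome 13, 34322075 to 34326368) stood at 500.2, 481 and 477 FPKM in the control libraries and 103, 106 and 103 in the Cd+OP libraries, and GLYMA_18G204200 (chromosome 18, 48697660 to 48700908) at 309, 287 and 304 FPKM in the control libraries and 61.98, 56.5 and 61.2 in the Cd+OP libraries. Every control library was more than 4 times as high as any Cd+OP library in both. The log2 fold changes were -2.30 ± 0.04 and -2.39 ± 0.05 (edgeR adjusted p = 6.54e-24 and 3.31e-23). Both were lower still with Cd alone, at 43.9 ± 3.15 and 31.4 ± 2.200 FPKM, and Cd+OP lay above Cd by 1.17 ± 0.04 and 0.86 ± 0.05 on the log2 scale (edgeR adjusted p = 6.96e-19 and 1.02e-14). GLYMA_03G055100 differed in that Cd+OP was the lowest of the 4 groups. It stood at 85.7, 83.3 and 84.4 FPKM in the control libraries and 9.88, 9.52 and 8.78 in the Cd+OP libraries, with means of 16.3 in Cd and 10.6 in control+OP, and its log2 fold change against control was -3.24 ± 0.05 (edgeR adjusted p = 8.92e-25). Against control+OP it was -0.25 ± 0.05 (edgeR adjusted p = 1.25e-04). GLYMA_01G118000 (-2.87 ± 0.06; means 37.2 and 5.34 FPKM) and GLYMA_07G153100 (-2.26 ± 0.04; 279 and 61.2 FPKM) fell as well.

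GLYMA_19G213100, a transcription factor gene annotated with ethylene signalling and response to anoxia, fell from 291, 271 and 287 FPKM in control to 97.3, 93.00 and 96.5 in Cd+OP, a log2 fold change of -1.63 ± 0.04 (edgeR adjusted p = 7.69e-21). It was lower with OP alone (34.03 ± 1.43) and with Cd alone (75.6 ± 4.56) than with both. SS, a sucrose synthase that cleaves sucrose into UDP-glucose and fructose, stood at 489, 475 and 453 FPKM in the control libraries and 163, 162 and 165 in the Cd+OP libraries. All Cd+OP values lay below all control values, with a log2 fold change of -1.60 ± 0.03 (edgeR adjusted p = 3.24e-23). Its mean was 72.3 ± 1.76 in Cd and 189 ± 4.41 in control+OP.

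**Figure D2:**
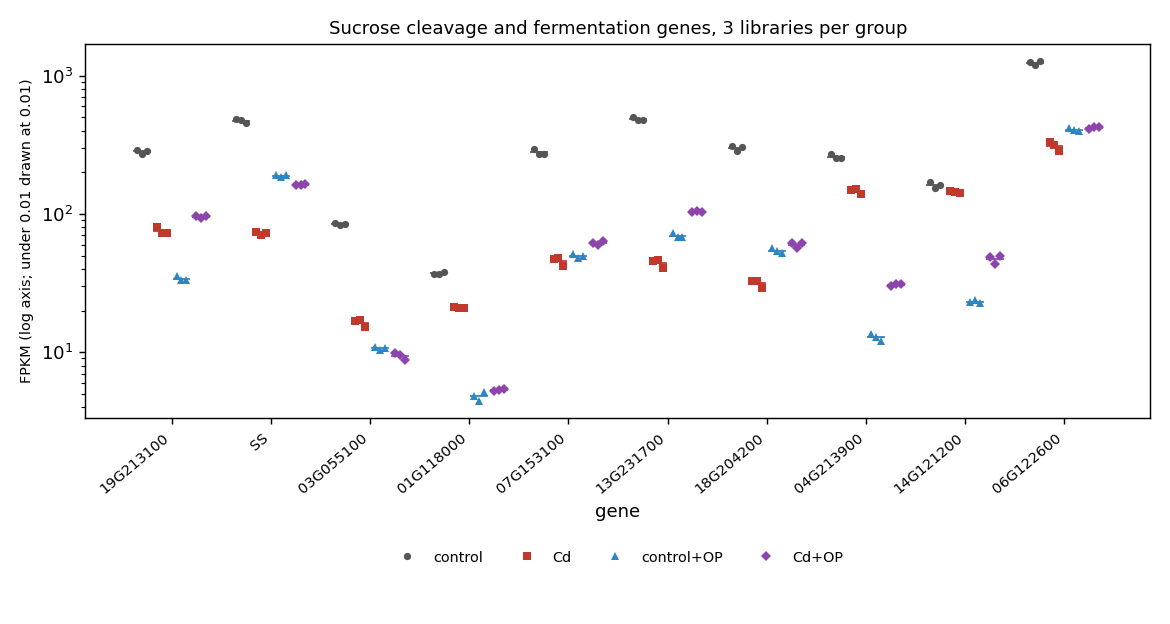
FPKM on a log axis (y) of the transcription factor gene GLYMA_19G213100, the sucrose synthase SS, 5 pyruvate decarboxylases (03G055100 to 18G204200) and 3 class-P alcohol dehydrogenases (x, identifiers without the GLYMA prefix) in 4 groups of 3 libraries; points are libraries and bars are group means. Control libraries are the highest for each gene, at 1244 against 419.6 FPKM in Cd+OP for GLYMA_06G122600.

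Glycolysis, which turns sugars into pyruvate, fell in most tested genes. Of 107 tested genes annotated with the process, 10 rose and 72 fell, and 1 of the rises and 22 of the falls were at least 2-fold. The share called was 76.6%, and 21.5% at least 2-fold, where all genes had 59.5% and 10.3%. The median log2 fold change was -0.47, beside -0.30 for Cd and 0.13 for control+OP against the same control libraries. GLYMA_10G201100, a pyruvate kinase, fell from 231, 224 and 222 FPKM to 69.3, 72.5 and 69.2, a log2 fold change of -1.75 ± 0.03 (edgeR adjusted p = 2.67e-23). Glyceraldehyde-3-phosphate dehydrogenase genes GLYMA_18G009700 and GLYMA_11G247600 had log2 fold changes of -1.66 ± 0.03 and -1.54 ± 0.03, from means of 332 and 492 FPKM to 110.0 and 178. No library of one group reached the other in these 3 genes. Both dehydrogenase genes were lower with both factors than with either alone: the log2 fold changes against Cd were -0.64 ± 0.03 and -0.94 ± 0.03, and those against control+OP -0.21 ± 0.03 and -0.34 ± 0.03 (edgeR adjusted p for the latter pair = 1.57e-06 and 1.31e-10).

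In the mitochondrion, 1 of 71 tested genes of the tricarboxylic acid cycle rose and 49 fell, with a median log2 fold change of -0.34, and 3 fell at least 2-fold. The share called was 70.4%, and 4.23% at least 2-fold, where all genes had 59.5% and 10.3%. The aconitase genes GLYMA_01G162800 and GLYMA_12G193800, which isomerise citrate, had log2 fold changes of -1.24 ± 0.03 and -0.90 ± 0.04, and the malate dehydrogenase GLYMA_17G100600 -1.18 ± 0.04. The first aconitase stood at 66.9, 62.8 and 62.3 FPKM in the control libraries and 28.5, 28.1 and 28.9 in the Cd+OP libraries, and the groups did not overlap. Of 101 tested subunits of the respiratory chain, 7 rose and 55 fell, none at least 2-fold. The share called, 61.4%, was near the 59.5% of all genes. The median was -0.19 beside -0.76 with Cd alone and 0.10 with OP alone. A complex I subunit, GLYMA_11G214800, fell from a mean of 33.8 ± 2.004 FPKM to 20.9 ± 0.419, and the iron-sulfur subunit of complex III, GLYMA_16G147600, from 61.7 ± 1.98 to 41.7 ± 0.867 (edgeR adjusted p = 7.42e-14 and 3.95e-13).

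Among the 8127 genes that met the naming criteria, carriers held 3 of the 10 lowest log2 fold changes. Each of the 3 met the naming limit of 5 FPKM through control, so that count and their changes are descriptions. The share of carriers among all genes was not counted. GLYMA_04G171900 (chromosome 4, 42886029 to 42886755), its neighbour GLYMA_04G171800 and GLYMA_06G192100 on chromosome 6, all annotated only as transmembrane transporters, had log2 fold changes of -4.26 ± 0.19, -3.34 ± 0.15 and -3.34 ± 0.10. GLYMA_04G171900 stood at 30.04, 27.7 and 28.8 FPKM in the control libraries and 1.96, 1.13 and 1.604 in the Cd+OP libraries, with means of 3.01 in Cd and 3.02 in control+OP. Its Cd+OP libraries were the lowest of the series, with log2 fold changes of -1.01 ± 0.21 against Cd and -1.02 ± 0.21 against control+OP (edgeR adjusted p = 1.15e-04 and 1.35e-04). The 3 genes are alike in annotation and reads may be shared between them.

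Lists of nitrogen and phosphate genes, which hold carriers and enzymes, had more falls than rises. In the nitrogen list, 20 rose and 29 fell of 60 tested (median -0.24), and in the phosphate list 9 rose and 19 fell of 32 (median -0.31), 12 and 8 of the falls being at least 2-fold. The shares called were 81.7% and 87.5%, where all genes had 59.5%. At least 2-fold, they were 28.3% and 25.0%, where all genes had 10.3%. The nitrate transporter gene GLYMA_13G323800 stood at 54.99, 54.2 and 58.7 FPKM in the control libraries and 7.97, 8.200 and 9.04 in the Cd+OP libraries. Its highest Cd+OP library was far under its lowest control library, and the log2 fold change was -2.80 ± 0.05 (edgeR adjusted p = 2.32e-23). Cd+OP was also below Cd (16.8 ± 0.452) and control+OP (22.6 ± 0.254), at log2 fold changes of -1.07 ± 0.05 and -1.50 ± 0.05 (edgeR adjusted p = 1.95e-15 and 5.60e-18). GLYMA_16G041200 and GLYMA_19G111000, glutamate dehydrogenases that release ammonium from glutamate, had log2 fold changes of -1.86 ± 0.04 and -1.54 ± 0.04. The phosphate transporter GLYMA_03G162800 went from 44.03, 39.8 and 40.5 FPKM in control to 9.38, 9.29 and 9.57, a log2 fold change of -2.21 ± 0.04 (edgeR adjusted p = 3.02e-23), without overlap. GLYMA_10G006700 and GLYMA_10G186500, of the same annotation, fell by 1.29 and 1.20 on the log2 scale.

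Aquaporins, the channels that pass water across membranes, fell almost throughout: 1 rose (GLYMA_06G003200) and 30 fell of 35 tested, and 8 fell at least 2-fold. The median log2 fold change was -0.61, beside -1.73 with Cd alone and -0.13 with OP alone. GLYMA_03G185900, annotated to the vacuole membrane, stood at 606, 543 and 600.2 FPKM in the control libraries and 293, 310.1 and 309.9 in the Cd+OP libraries, and GLYMA_13G325900 at 399, 389 and 383 FPKM in the control libraries and 195.9, 195.2 and 213 in the Cd+OP libraries. In both genes each control library exceeded each Cd+OP library, with log2 fold changes of -1.01 ± 0.04 and -1.02 ± 0.04 (edgeR adjusted p = 8.45e-18 and 4.92e-18). They differed in where Cd+OP stood against the single factors: GLYMA_03G185900 was at 591 ± 18.3 FPKM with OP alone and 194 ± 6.31 with Cd alone, and GLYMA_13G325900 at 176 ± 3.35 and 93.03 ± 4.32. The exception GLYMA_06G003200, named because it was the 1 riser and chosen after its values were seen, had means of 2.95 in control and 4.26 in Cd+OP (log2 fold change 0.46 ± 0.14, edgeR adjusted p = 0.00549). Without control replicate 1 it was not called (0.30, edgeR adjusted p = 0.0965). Sugar carriers had 21 rises and 32 falls among 81 tested, a share called of 65.4% where all genes had 59.5%, and 3 of the rises and 13 of the falls were at least 2-fold. GLYMA_13G213300, a carbohydrate:proton symporter, fell from 105 ± 2.06 to 38.00 ± 1.49 FPKM, a log2 fold change of -1.54 ± 0.04 (edgeR adjusted p = 1.96e-20).

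Genes of the wall expansion and pectin list, which also holds genes for cellulose synthesis and wall structure, fell more often than they rose. Of its 184 tested members, 36 rose and 108 fell, and 9 of the rises and 44 of the falls were at least 2-fold. The share called was 78.3%, and 28.8% at least 2-fold, where all genes had 59.5% and 10.3%. The median log2 fold change was -0.41, beside -0.77 for Cd and 0.42 for control+OP. The pectinesterase GLYMA_01G137700, which removes methyl groups from pectin, stood at 352, 349.8 and 340.2 FPKM in the control libraries and 102, 108 and 98.7 in the Cd+OP libraries. The lowest control library lay far above the highest Cd+OP library, and the log2 fold change was -1.83 ± 0.03 (edgeR adjusted p = 1.22e-23). GLYMA_08G330700, a cellulose synthase, fell from 51.6 ± 2.24 to 15.5 ± 0.912 FPKM (-1.81 ± 0.04). Against these, GLYMA_16G170000, annotated as a structural constituent of the wall, rose from 15.4, 15.7 and 15.5 to 69.6, 68.8 and 69.9 FPKM, a log2 fold change of 2.09 ± 0.04 (edgeR adjusted p = 3.31e-23). That gene was at 182 ± 2.51 FPKM with Cd alone, with a log2 fold change of -1.46 ± 0.04 for Cd+OP against Cd.

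Class III peroxidases, secreted enzymes that cross-link or loosen walls with hydrogen peroxide, went both ways: 53 rose and 46 fell of 114 tested, and 18 of the rises and 22 of the falls were at least 2-fold. The share called was 86.8%, and 35.1% at least 2-fold, where all genes had 59.5% and 10.3%. GLYMA_05G103600 fell from 543, 546 and 523 FPKM in control to 159, 159 and 169.7 in Cd+OP, and GLYMA_09G284700 from 55.1, 56.4 and 51.9 to 6.14, 8.66 and 7.39, neither with overlap. Their log2 fold changes were -1.79 ± 0.04 and -2.95 ± 0.09 (edgeR adjusted p = 7.09e-23 and 2.08e-19). GLYMA_14G201700 and GLYMA_09G277800 had log2 fold changes of -1.67 ± 0.04 and -1.78 ± 0.04. Lignin and laccase genes showed 1 rise and 12 falls among 26 tested, 1 of them at least 2-fold, at a median of -0.28 where Cd alone had -2.64. The cinnamyl-alcohol dehydrogenase GLYMA_10G262400, which makes lignin monomers, fell from 13.5 ± 0.305 to 8.03 ± 0.332 FPKM (-0.82 ± 0.06, edgeR adjusted p = 1.20e-11).

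Some genes that stood at least 4-fold from control with Cd alone lay between control and Cd when the bacterium was present too. Of the 8127 genes that met the naming criteria, 141 such genes were higher in Cd+OP than in control and 343 were lower. Over all genes tested, 30.2% were called higher and 29.3% lower in Cd+OP than in control, so these counts are a description. Cd+OP and Cd are both set against the same control libraries, so their differences from control share that error. The largest of those higher were a fatty acid binding gene, a cysteine peptidase, a protease inhibitor and a transcription factor gene.

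GLYMA_18G033200 (chromosome 18, 2549082 to 2549732), a fatty acid binding gene also annotated with systemic acquired resistance, stood at 38.4, 35.7 and 36.4 FPKM in the control libraries and 365, 373 and 359.9 in the Cd+OP libraries. The Cd libraries held 2246, 2392 and 2289 FPKM and the control+OP libraries 66.5, 71.5 and 82.1. None of the 4 groups overlapped, and the log2 fold change of Cd+OP was 3.24 ± 0.05 against control and -2.73 ± 0.05 against Cd (edgeR adjusted p = 3.00e-24 and 1.71e-24). Its list held 36 tested members, of which 18 rose and 14 fell, and 12 of the rises and 0 of the falls were at least 2-fold, at a median of 0.09. The share called was 88.9%, and 33.3% at least 2-fold, where all genes had 59.5% and 10.3%. GLYMA_18G033100, GLYMA_11G225000 and GLYMA_11G224900 had log2 fold changes of 2.91 ± 0.08, 2.79 ± 0.06 and 3.06 ± 0.09, from means of 17.2, 29.9 and 6.65 FPKM to 136, 217 and 58.2. GLYMA_18G033100 and GLYMA_18G033200 are neighbours, as are the pair on chromosome 11, and such relatives may share reads.

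GLYMA_15G082200, a cysteine-type endopeptidase annotated to the lysosome, stood at 10.7, 10.7 and 9.86 FPKM in the control libraries and 112, 115 and 116 in the Cd+OP libraries, and with Cd alone at 382, 380.0 and 379.7. Every Cd+OP library was above all control libraries and below all Cd libraries. The log2 fold change was 3.39 ± 0.04 against control and -1.80 ± 0.03 against Cd (edgeR adjusted p = 7.87e-27 and 6.48e-24). Protease inhibitors, small proteins that block digestive and defence proteases, went both ways. Of 51 tested, 26 rose and 20 fell, and 14 of the rises and 11 of the falls were at least 2-fold. The share called was 90.2%, and 49.0% at least 2-fold, where all genes had 59.5% and 10.3%. On chromosome 9, GLYMA_09G163200 went from 5.96, 4.17 and 4.29 FPKM in control to 46.2, 45.3 and 44.7 in Cd+OP and 431, 434 and 436 in Cd. On chromosome 16, GLYMA_16G212400 went from 108, 103 and 96.98 in control to 29.4, 28.7 and 27.1 in Cd+OP, although Cd alone stood at 243, 256 and 219. The log2 fold changes of Cd+OP against control were 3.16 ± 0.07 for the first and -1.92 ± 0.05 for the second (edgeR adjusted p = 1.14e-21 and 3.50e-20). GLYMA_09G163300 rose too (2.82 ± 0.07), and GLYMA_16G212200 and GLYMA_16G212500 fell (-3.04 ± 0.10 and -2.33 ± 0.11).

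Signalling genes were also among those higher in Cd+OP and higher again with Cd. The transcription factor gene GLYMA_02G008200 stood at 3.59, 3.296 and 2.67 FPKM in the control libraries and 31.6, 26.9 and 30.99 in the Cd+OP libraries, near its level with Cd alone (36.6, 36.6 and 42.3). Its log2 fold change was 3.14 ± 0.19 against control and -0.44 ± 0.15 against Cd (edgeR adjusted p = 2.75e-13 and 0.0137). GLYMA_16G108700, annotated with hormone activity and root development, rose from 0.431, 1.19 and 1.18 to 8.25, 7.48 and 8.25 FPKM (3.02 ± 0.24), where Cd alone had a mean of 15.01. It met the naming limit of 5 FPKM through Cd, so its change is a description. GLYMA_09G040400, an abscisic acid binding protein of the class that inhibits protein phosphatases, rose from 11.99 ± 1.16 to 38.96 ± 0.617 FPKM, and Cd alone stood at 562 ± 31.8. Its log2 fold change was 1.63 ± 0.06 against control and -3.92 ± 0.05 against Cd (edgeR adjusted p = 2.66e-18 and 7.23e-27).

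Of the 6 lowest genes that were lower in Cd+OP and lower again with Cd alone, the pyruvate decarboxylase GLYMA_18G204200 and the protease inhibitor GLYMA_16G212500 are given above. GLYMA_01G048400 (chromosome 1, 5627602 to 5631187), a ribonuclease T2, which degrades RNA in vacuoles and outside cells, stood at 75.8, 67.98 and 68.2 FPKM in the control libraries and 8.29, 10.2 and 8.67 in the Cd+OP libraries, and at 3.67, 4.81 and 3.72 with Cd alone. Cd+OP thus sat under every control library and over every Cd library. The log2 fold change was -3.03 ± 0.09 against control and 1.08 ± 0.10 against Cd (edgeR adjusted p = 2.07e-19 and 1.12e-09). A second gene of that family, GLYMA_20G036200, had log2 fold changes of -2.54 ± 0.12 and 1.93 ± 0.15. GLYMA_15G011500, an ATP:ADP antiporter of the plastid membrane, went from 49.1 ± 1.67 to 7.35 ± 0.6404 FPKM (-2.81 ± 0.07), and GLYMA_02G028800, a metalloendopeptidase, from 55.8 ± 2.99 to 9.91 ± 0.381 (-2.56 ± 0.05). For these 2 genes Cd+OP was lower than control+OP as well, at log2 fold changes of -1.25 ± 0.07 and -0.81 ± 0.05 (edgeR adjusted p = 1.57e-14 and 8.89e-13).

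**Figure D3:**
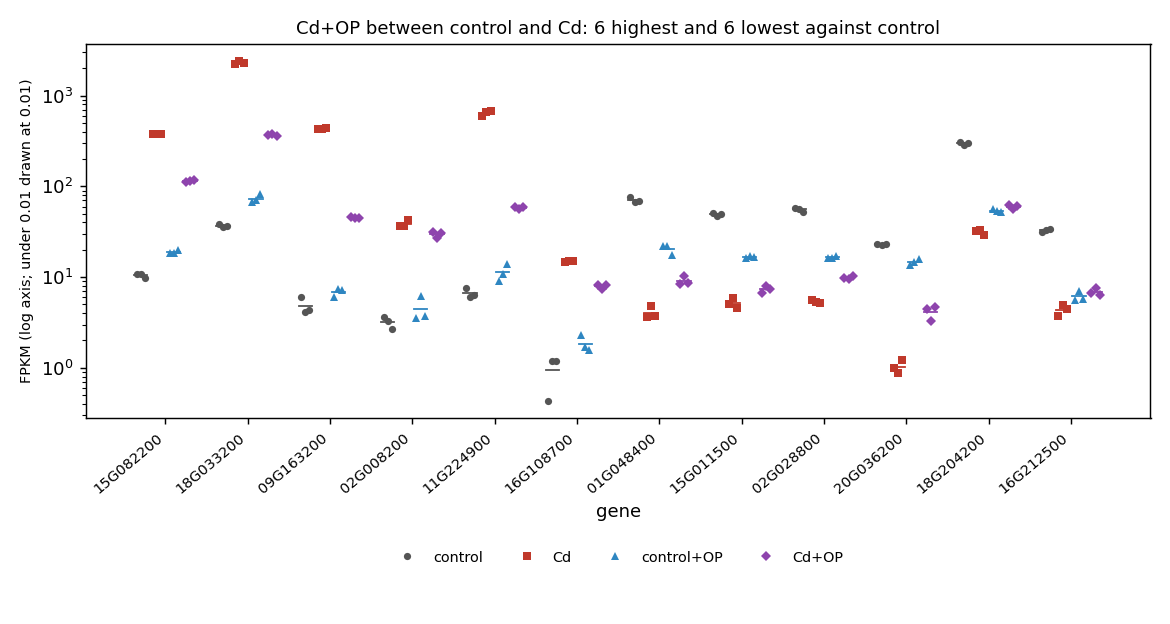
FPKM on a log axis (y) of the 6 highest and 6 lowest genes against control (x) among those whose Cd+OP mean lay between control and Cd and whose Cd mean was at least 4-fold from control; points are libraries, bars are means of 3. For 18G033200 the means are 36.8 in control, 366 in Cd+OP and 2309 in Cd, and for 01G048400 70.6, 9.06 and 4.07.

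Other genes went beyond control, to the side opposite to Cd. Of the 8127 genes that met the naming criteria, 944 were higher in Cd+OP than in control although their mean with Cd alone lay under the lowest control library. Another 955 were lower although their Cd mean lay over the highest control library. Over all genes tested, 59.5% were called for Cd+OP against control and 76.2% for Cd against control. The counts of 944 and 955 follow from the rule, share the control libraries and are a description. Above control the largest were a glucanase, a transaminase, lipases, a transcription factor gene and the vegetative storage protein gene VSPB.

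GLYMA_11G095100 (chromosome 11, 7212438 to 7214276), a glucan endo-1,3-beta-glucosidase of the kind that attacks fungal walls and callose, stood at 3.15, 3.06 and 2.74 FPKM in the control libraries and 35.5, 33.8 and 37.8 in the Cd+OP libraries. Cd libraries held 1.17, 0.826 and 1.48 FPKM and control+OP libraries 60.6, 61.98 and 58.2. Cd+OP was thus above control and Cd and below OP alone, with log2 fold changes of 3.51 ± 0.09, 4.86 ± 0.10 and -0.83 ± 0.07 (edgeR adjusted p = 9.19e-21, 6.97e-23 and 2.92e-10). The transaminase gene GLYMA_06G235900 showed that order, with 6.82, 6.45 and 7.89 FPKM in Cd+OP, 0.464, 0.6002 and 0.888 in control, 0.205, 0 and 0.641 in Cd and 75.4, 70.7 and 70.9 in control+OP. Its log2 fold change against control was 3.38 ± 0.24. The gene met the naming limit of 5 FPKM through control+OP, so this change is a description. VSPB, a vegetative storage protein known as a jasmonate-responsive product of soybean leaves, reached 127, 126 and 123 FPKM, against 20.6, 21.9 and 18.4 in control and 0.798, 1.98 and 4.86 in Cd. Its log2 fold change against control was 2.55 ± 0.16 (edgeR adjusted p = 4.26e-13). Control+OP stood at 121, 123 and 128, and the difference of Cd+OP from it was -0.06 ± 0.14 (edgeR adjusted p = 0.711).

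Neighbouring lipase genes on chromosome 14, GLYMA_14G081200 and GLYMA_14G081500, which may share reads, were highest with both factors. The first stood at 5.04, 5.09 and 4.25 FPKM in the control libraries and 44.5, 40.9 and 41.1 in the Cd+OP libraries, with means of 1.88 in Cd and 23.3 in control+OP. The second rose from 6.42 ± 0.414 to 49.6 ± 2.05 FPKM. Against control+OP alone, Cd+OP was higher by 0.78 ± 0.09 and 0.83 ± 0.07 on the log2 scale (edgeR adjusted p = 4.58e-08 and 4.00e-10). The transcription factor gene GLYMA_03G002300 followed the same order, from 0.378, 0.547 and 0.379 FPKM in Cd through 2.72, 2.099 and 2.32 in control and 7.06, 8.37 and 7.54 in control+OP to 19.4, 19.8 and 18.3 in Cd+OP. Its log2 fold change against control was 2.93 ± 0.13 (edgeR adjusted p = 4.55e-16). The gene met the naming limit of 5 FPKM through Cd+OP, so this change is a description.

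The 6 lowest genes under control with the Cd mean above it follow. GLYMA_13G349300, with the KEGG term for the invertase that splits sucrose into glucose and fructose, stood at 53.00, 49.97 and 51.01 FPKM in the control libraries and 8.83, 9.06 and 9.34 in the Cd+OP libraries, where Cd alone had 73.8, 71.8 and 73.2 and OP alone 7.01, 8.03 and 6.98. The OP-treated groups lay far below the other groups. The log2 fold change was -2.57 ± 0.05 against control and -3.08 ± 0.05 against Cd (edgeR adjusted p = 2.22e-23 and 1.83e-25). GLYMA_15G134300, a flavoprotein annotated with FAD binding, and GLYMA_10G180500, an aspartic endopeptidase, had the same order of means: 74.3 and 32.2 FPKM in control, 105 and 52.8 in Cd, 13.5 and 5.92 in Cd+OP, then 9.73 and 1.41 with OP alone. For both, Cd+OP was under control (-2.53 ± 0.04 and -2.51 ± 0.05) and above control+OP (0.40 ± 0.04 and 1.99 ± 0.07, edgeR adjusted p = 2.29e-08 and 1.45e-17). The peroxidase GLYMA_09G277900, the amino acid carrier GLYMA_08G129600 and the pectinesterase GLYMA_01G138100 completed the group at -2.16 ± 0.14, -2.11 ± 0.10 and -2.10 ± 0.13. For GLYMA_08G129600 Cd alone was not called against control (log2 fold change 0.18, edgeR adjusted p = 0.0591), and its Cd libraries overlapped control.

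**Figure D4:**
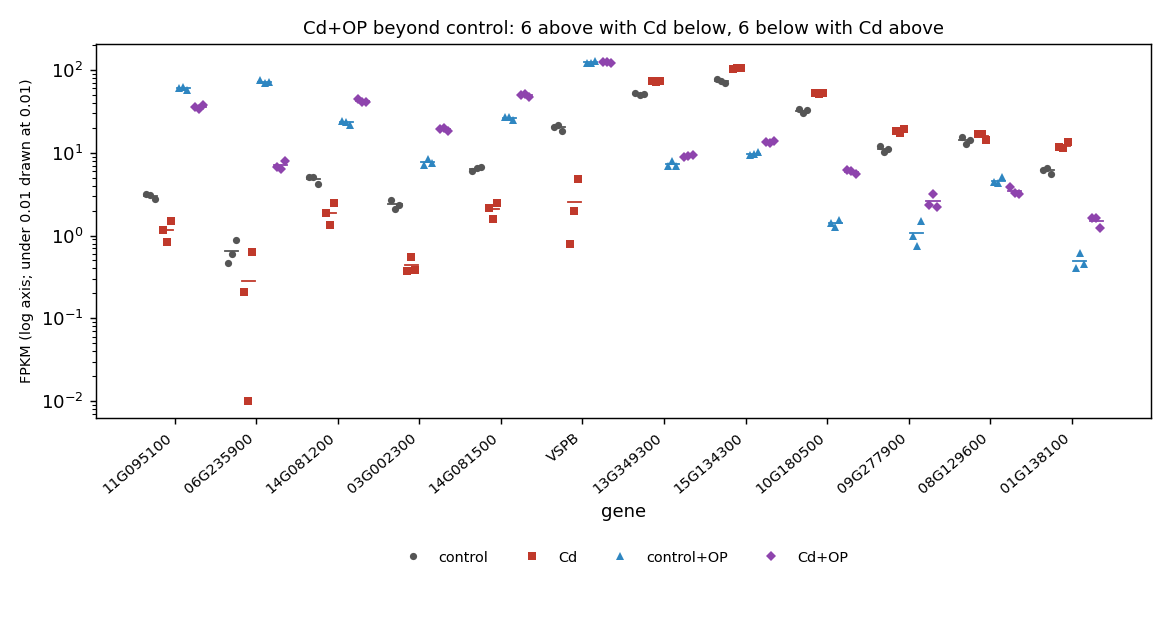
FPKM on a log axis (y) of the 6 genes highest above control with Cd below it (left, 11G095100 to VSPB) and the 6 lowest under control with Cd above it (right, x axis) in 4 groups; points are libraries and bars are means of 3. VSPB has means of 20.3 in control and 125 in Cd+OP, and 13G349300 of 51.3 and 9.07.

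A further set differed from control and, in the same direction, from both single factors. Over all genes tested, 36.4% were called higher and 34.6% lower in Cd+OP than in Cd (71.0% in all), and 33.6% higher and 33.1% lower than in control+OP (66.7% in all). Among genes that met the naming criteria, 930 were higher in Cd+OP than in control, Cd and control+OP and 1022 were lower. These genes were already called and apart from control, and the comparisons share the Cd+OP libraries. The joint share over all genes was not counted, so both counts are a description. GLYMA_10G170900, a dual-specificity or tyrosine phosphatase, stood at 7.87, 7.43 and 6.64 FPKM in the control libraries and 25.1, 24.7 and 21.2 in the Cd+OP libraries, with 4.98, 5.88 and 6.62 in Cd and 10.4, 7.21 and 6.78 in control+OP. The other groups had means from 5.83 to 8.13 and Cd+OP stood clear of all of them, by 1.62 ± 0.13, 1.95 ± 0.13 and 1.47 ± 0.13 on the log2 scale against control, Cd and control+OP (edgeR adjusted p = 9.16e-11, 2.19e-12 and 4.52e-10). GLYMA_13G251700, annotated with defense response, went from 11.4, 10.9 and 9.88 FPKM in control to 35.2, 32.7 and 33.5, with means of 12.3 in Cd and 10.98 in control+OP (1.59 ± 0.10 against control, edgeR adjusted p = 2.99e-13). GLYMA_10G045200, annotated with response to chitin, went from 4.78, 4.56 and 4.19 to 16.1, 14.1 and 15.8 (1.69 ± 0.16). It met the naming limit of 5 FPKM through Cd+OP, so its change is a description. In the other direction, the adenylosuccinate synthase GLYMA_19G142400, which acts in the making of AMP, fell from 8.82, 8.96 and 9.303 to 4.11, 3.03 and 4.23 FPKM, with means of 9.24 in Cd and 8.47 in control+OP. Its log2 fold changes were -1.32 ± 0.11, -1.36 ± 0.11 and -1.23 ± 0.11 against control, Cd and control+OP (edgeR adjusted p = 3.14e-10, 1.10e-10 and 9.92e-10). GLYMA_18G271900, annotated with cellulose microfibril organisation, and the lipoxygenase GLYMA_08G189200 differed less from control (-0.63 ± 0.12 and -0.37 ± 0.08) than from Cd (-2.13 ± 0.11 and -1.25 ± 0.08) and control+OP (-1.65 ± 0.12 and -2.15 ± 0.08).

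Nodule genes, prominent with OP alone, lay far under that level with both factors. Of the 31 members of the nodulation and oxygen carrier list, 28 passed the filter, many only through control+OP, so their count is a description: 19 rose and 7 fell. With DESeq2 10 rose, and the median log2 fold change of 0.96 was 0.46 with limma on log2(FPKM + 1). Among them, by limits set after the values were seen, were 15 genes that had at least 20 FPKM in control+OP and a log2 fold change over 4 against control there. That choice fixes that they are low in control, so their levels are given as a description. In Cd+OP these 15 stood at 1.32 to 7.13% of their control+OP means. LGB1, a leghaemoglobin, stood at 0.982, 1.54 and 1.67 FPKM in control, 3.15, 2.63 and 2.56 in Cd+OP and 127, 121 and 116 in control+OP. The Cd+OP libraries lay above control, with a log2 fold change of 0.93 ± 0.20, and under control+OP. As LGB1 was picked through control+OP, this too is a description. A second leghaemoglobin, LBA, had 0, 0.254 and 0.237 FPKM in control, 0.569, 0.574 and 0.708 in Cd+OP and 32.9, 33.3 and 33.6 in control+OP. GLYMA_20G024200, the most raised of the 15 against control in Cd+OP, reached 2.41, 3.28 and 3.52 FPKM there, 0.0666, 0.875 and 0.812 in control and 201, 189 and 188 in control+OP (2.33 ± 0.36 against control on the log2 scale, and 1.70 without control replicate 1). The list also held falls. GLYMA_11G121800, an oxygen carrier, fell from 684, 621 and 637 FPKM in control to 319, 331 and 342 in Cd+OP (-1.04 ± 0.04, edgeR adjusted p = 1.26e-16), and SS, described above, is a member too.

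**Figure D5:**
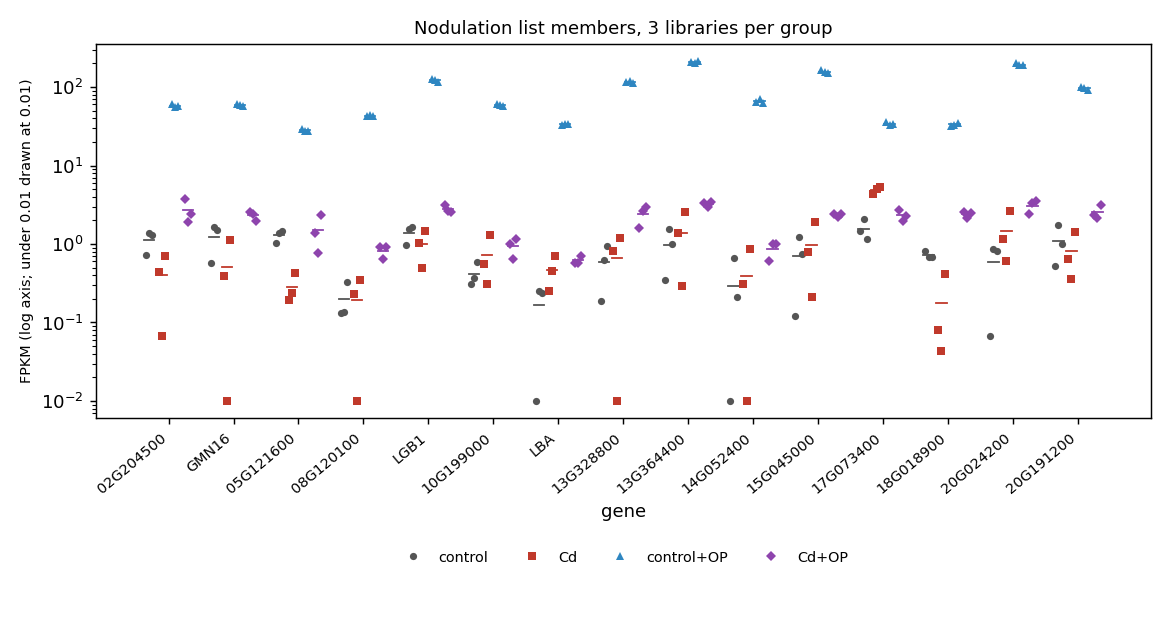
FPKM on a log axis (y) of the 15 nodulation list members with at least 20 FPKM in control+OP and a log2 fold change over 4 there (x) in 4 groups of 3 libraries; points are libraries, bars are means. Control+OP lies apart at the top, as for LGB1 at 121 FPKM, while LGB1 is at 1.397 in control and 2.78 in Cd+OP.

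Markers of other tissues and of RNA make-up moved with the groups, and their part in the results above was not tested. Photosynthesis genes, markers of green tissue, summed to 448 to 482 FPKM in control and 289 to 291 in Cd+OP. Of the 167 members, 8 were listed at 0 in all 6 libraries and 46 were tested. Of these 0 rose and 37 fell, 17 at least 2-fold, among them GLYMA_20G098500 of photosystem II (27.1, 26.9 and 25.3 FPKM to 6.45, 6.67 and 6.47; -2.09 ± 0.09). GLYMA_20G098500 met the naming limit of 5 FPKM through control, so its change is a description. The share of tested photosynthesis genes called was 80.4%, where all genes had 59.5%. Genes for ferredoxin-NADP+ reductase are in this list too: GLYMA_09G024100 and GLYMA_15G130100 had log2 fold changes of -0.64 ± 0.04 and -0.54 ± 0.04. Markers of root tissues were present in control and Cd+OP, with 0 of 53 xylem and phloem and 0 of 20 endodermis members listed at 0 in all 6 libraries. Xylem and phloem genes summed to 284 to 300.3 FPKM in control and 214 to 218 in Cd+OP, and 6 rose and 12 fell of 29 tested, at a median of -0.19 where Cd alone had -1.39. Their share called was 62.1%, near the 59.5% of all genes. The phloem development gene GLYMA_02G000700 stood at 39.7 ± 0.694 FPKM in control, 17.2 ± 0.7495 in Cd+OP and 2.49 ± 0.341 in Cd. Endodermis and suberin genes, whose Casparian strip seals the root's inner tissues, summed to 172 to 182 FPKM in control and 156 to 164 in Cd+OP and had a median of 0.06 in Cd+OP beside -4.37 with Cd alone. Of 15 tested, 4 rose and 2 fell, and the peroxygenase GLYMA_09G123800 fell most, from 37.2, 34.1 and 34.1 to 8.09, 7.45 and 7.32 FPKM (-2.27 ± 0.07).

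Genes annotated as nutrient reservoirs, the seed storage marker list, summed to 875 to 940.5 FPKM in control and 1087 to 1098 in Cd+OP, and 10 of 103 members were listed at 0 in all 6. Of 45 tested, 21 rose and 17 fell, or 84.4% called where all genes had 59.5%. VSPA and VSPB are members. GLYMA_20G220900, annotated with manganese binding in the apoplast, rose from 22.3 ± 1.68 to 90.5 ± 1.94 FPKM (1.95 ± 0.06), and GLYMA_07G039100 of the same annotation fell from 75.5 ± 2.46 to 25.98 ± 1.51 (-1.61 ± 0.06). All 128 copies of 5.8S ribosomal RNA together summed to 183 to 211 FPKM in control, 591 to 629 in Cd+OP, 804 to 968 in Cd and 164 to 177 in control+OP. The filter averages over all groups, so copies high in Cd and Cd+OP passed it more readily. That all 92 of the copies that passed rose is therefore a description. Copies of this RNA are closely alike and may share reads, so they are not separate observations. Their median log2 fold change of 1.68 was 1.06 to 1.76 over the alternatives.

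The metal lists had small median changes, but their members were called about as often as other genes or more often. The shares called were 58.2% for metal transport, 69.2% for cadmium response and 70.4% for iron balance, where all genes had 59.5%. At least 2-fold, they were 9.18%, 11.5% and 12.3%, where all genes had 10.3%. Metal transport had 36 rises and 21 falls among 98 tested (median 0.12), cadmium response and chelation 8 rises and 10 falls among 26 (median -0.04; with library totals the more frequent direction turned), iron balance 33 rises and 24 falls among 81 (median 0.09), and at least 2-fold changes were 6 up and 3 down, 1 up and 2 down, and 5 up and 5 down. GLYMA_13G338300, a metal ion carrier, rose from 65.5, 63.6 and 65.4 FPKM to 111, 117 and 116, above Cd (76.00) and control+OP (71.6) as well. Another, GLYMA_13G004400, fell from 31.6, 28.4 and 29.6 to 11.2, 10.98 and 11.4. Their log2 fold changes were 0.76 ± 0.04 and -1.49 ± 0.05 (edgeR adjusted p = 1.71e-15 and 4.32e-19). The 3 named genes annotated with response to cadmium, GLYMA_11G208700, GLYMA_18G045200 and GLYMA_07G125600, fell, at -0.74 ± 0.05, -0.45 ± 0.04 and -0.60 ± 0.05, and lay above their levels with Cd alone: 212 FPKM in control, 133 in Cd+OP and 51.7 in Cd for the first.

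Glutathione transferases, which join glutathione to toxic compounds, had 31 rises and 10 falls among 69 tested, 3 and 1 at least 2-fold. GLYMA_08G174900 rose from 11.6, 8.897 and 9.62 to 35.96, 39.1 and 32.8 FPKM, with Cd alone at 51.1, 52.1 and 49.05 (1.77 ± 0.08 against control, edgeR adjusted p = 1.30e-15), and GLYMA_03G176300 fell from 64.9 ± 1.19 to 28.1 ± 0.863 (-1.28 ± 0.04). The sulfur and glutathione list had 27 rises and 27 falls among 81 tested, or 66.7% called. GLYMA_09G004400, with the KEGG term for the reductase of activated sulfate, rose from 25.4 ± 0.5300 to 64.9 ± 0.374 FPKM (1.28 ± 0.04). Antioxidant enzymes had 10 rises and 16 falls among 46 tested, or 56.5% called, and with library totals the more frequent direction turned. SODB, an iron superoxide dismutase that removes superoxide, rose from 123, 115 and 121 to 228, 227 and 229.6 FPKM, where Cd alone stood at 117 and OP alone at 306, and the catalase CAT3, which splits hydrogen peroxide, fell from 54.1, 56.2 and 52.7 to 34.9, 31.2 and 31.8. Neither pair of groups overlapped, and the log2 fold changes were 0.86 ± 0.03 and -0.81 ± 0.05 (edgeR adjusted p = 4.40e-17 and 1.27e-12). Of 121 tested genes annotated with response to heat or heat shock protein binding, 54 rose and 32 fell, and 12 of the rises and 9 of the falls were at least 2-fold. The share of that list called was 71.1%, and 17.4% at least 2-fold. The chaperones GLYMA_12G064000 and GLYMA_11G140500 rose by log2 fold changes of 1.25 ± 0.03 and 1.11 ± 0.03, to means of 229 and 157 FPKM. GLYMA_08G165400, a phosphoglycerate kinase annotated with response to heat, fell from 166 ± 6.18 to 65.7 ± 2.55 FPKM (-1.41 ± 0.03, edgeR adjusted p = 3.42e-21).

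Lists of hormone genes held changes in both directions. Jasmonate and oxylipin genes had 62 rises and 29 falls among 123 tested (median 0.24, beside -0.58 with Cd alone and 0.19 with OP alone). LOX1.4, a 9-lipoxygenase that oxidises linoleate, fell from 860.4, 815 and 805 to 437, 443 and 435 FPKM, with 67.4, 66.5 and 67.5 in Cd (-0.98 ± 0.03 against control). Genes annotated as jasmonic acid hydrolases parted: GLYMA_02G257700 rose from 22.03, 20.4 and 19.3 to 77.8, 80.8 and 71.5, and GLYMA_07G150900 fell from 145, 139 and 138 to 47.5, 47.9 and 49.99. The log2 fold changes were 1.83 ± 0.05 and -1.61 ± 0.04 (edgeR adjusted p = 6.68e-20 and 1.63e-20). Beside 30.2% rising and 29.3% falling over all genes, ethylene had 44 rises and 28 falls among 114 (9 and 11 at least 2-fold), abscisic acid and dehydration 48 rises and 79 falls among 173, auxin 90 rises and 99 falls among 284, cytokinin 52 rises and 40 falls among 124 and gibberellin 20 rises and 16 falls among 53, with medians of 0.07, -0.11, -0.03, 0.13 and 0.06, and auxin turned to the other side with library totals. ACS1, which makes the ethylene precursor, rose from 8.39 ± 0.151 to 17.7 ± 0.972 FPKM (1.01 ± 0.06), and an ethylene-responsive transcription factor gene, GLYMA_05G186700, from 63.4 ± 3.19 to 173 ± 3.097 (1.38 ± 0.04), over both single factors (55.1 in Cd and 78.7 in control+OP). Another transcription factor gene of that list, GLYMA_10G016500, fell from 145.6 ± 2.07 to 65.5 ± 1.22 FPKM (-1.22 ± 0.03, edgeR adjusted p = 1.65e-20). GLYMA_15G145900, an abscisic acid binding protein, rose from 1.48, 1.25 and 1.600 to 11.9, 12.8 and 11.7 FPKM (edgeR adjusted p = 5.19e-14). It met the naming limit of 5 FPKM through Cd+OP, so its change is a description. The gibberellin 2-beta-dioxygenase GLYMA_13G218200, which inactivates gibberellin, fell from 36.1 ± 1.895 to 15.2 ± 0.561 (-1.32 ± 0.06). Defense proteins had 44 rises and 39 falls among 124 tested, or 66.9% called, near the 59.5% of all genes. The chitinase GLYMA_10G227700 fell from 115, 108 and 112 to 21.9, 26.3 and 24.7 FPKM (-2.27 ± 0.05) and the chitinase GLYMA_02G042500 rose from 7.58, 6.902 and 5.77 to 22.1, 22.03 and 22.3 (1.64 ± 0.06), neither with overlap.

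In secondary metabolism, sterol and triterpenoid genes fell more often than they rose, with 11 rises and 35 falls among 60 tested, at a median of -0.30 beside -1.12 with Cd alone and 0.51 with OP alone. The share called was 76.7%, where all genes had 59.5%. CYP93E1, a P450 of soyasaponin synthesis, stood at 110.5, 102 and 104 FPKM in the control libraries and 38.6, 42.1 and 46.01 in the Cd+OP libraries, with 5.86, 5.53 and 5.62 in Cd and 150.2, 146 and 143 in control+OP. Cd+OP thus lay between Cd and control, with log2 fold changes of -1.39 ± 0.04 against control and 2.82 ± 0.05 against Cd (edgeR adjusted p = 5.20e-19 and 5.11e-24). The sterol demethylase GLYMA_07G110900 had -1.57 ± 0.05 against control. Flavonoid genes were divided, with 31 rises and 26 falls among 72, or 79.2% called. The cinnamate 4-hydroxylase GLYMA_20G114200, at the entry to phenylpropanoids, fell from 149.8, 143 and 145 to 25.6, 25.3 and 27.5 FPKM (-2.55 ± 0.04, edgeR adjusted p = 4.78e-25), and the chalcone synthase CHS6 rose from 1.37, 1.73 and 1.55 to 4.79, 4.51 and 5.15 (1.56 ± 0.13). ABC and MATE transporters, which export xenobiotics and metabolites, had 29 rises and 28 falls among 71, 10 and 4 at least 2-fold. Their share called was 80.3%, and 19.7% at least 2-fold, where all genes had 59.5% and 10.3%. GLYMA_16G078100 and GLYMA_01G008200, ABC transporters of the B family, rose to 41.5 ± 0.314 and 23.5 ± 0.433 FPKM from 15.4 ± 0.171 and 8.52 ± 0.126, and Cd alone had 10.8 and 4.46.

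Growth and turnover lists held few changes of at least 2-fold. Cell division had 64 rises and 68 falls among 250 tested, DNA replication 31 rises and 51 falls among 144, ribosomal proteins 124 rises and 167 falls among 583 and autophagy 33 rises and 31 falls among 126, with medians of -0.01, -0.09, -0.04 and -0.02. The shares called were 52.8%, 56.9%, 49.9% and 50.8%, where all genes had 59.5%. At least 2-fold, they were 2.40%, 3.47%, 2.06% and 1.59%, where all genes had 10.3%. Cell division and ribosomal proteins turned to the other side with library totals. With Cd alone the medians were -0.30, -0.60, -0.32 and 0.20. GLYMA_18G259000, a ribosomal protein gene, was an exception among the named genes, with 13.5, 13.2 and 12.5 FPKM in the control libraries and 47.6, 47.4 and 44.3 in the Cd+OP libraries (1.76 ± 0.05, edgeR adjusted p = 2.47e-20). The DNA helicase GLYMA_11G113300, which unwinds DNA for replication, fell from 7.202 ± 0.337 to 4.603 ± 0.316 FPKM, above its mean of 1.64 with Cd alone.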

How the data were processed

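Total RNA of roots was isolated with TRIzol and libraries were made for an Illumina NovaSeq, per the labels' protocols. The authors deposited 1 table of 49128 genes with FPKM values and whole-number expected counts per library. The sources used here name no aligner, counter, strand use or genome build, and 0 identifiers matched the reference gene table. The deposited counts do not behave as simple read tallies, since the value 4 stands 10000 times, 3 stands 5019 times and 5 stands 3231 times. Total counts were 49904227 to 57693211. Standard errors and p-values drawn from them cover the spread between these libraries, which may be technical.

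Genes averaging 1 FPKM or more over the 12 libraries (30340) entered edgeR 4.0.16 in R 4.3.3 (quasi-likelihood, TMM scaling, 1 mean per group over 12 libraries, two-sided, Benjamini-Hochberg over these genes, threshold 0.05). Standard errors (SE) were taken as the absolute log2 fold change over the root of the F statistic. Alternatives were other scalings and filters, DESeq2 1.42.0, limma 3.58.1, counts divided by 4, the 6 libraries alone, a replicate block and each library left out. Scripts were tested on simulated counts.

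The comparison, the 40 lists and the naming rule were chosen with earlier results of these data known, and lists carry no test. Lists take the table's Gene Ontology, KEGG and symbol entries, and 4 of them were narrowed, and 5.8S ribosomal RNA added, after values were seen. The naming limit of 5 FPKM is a mean over the 12 libraries. Some genes met it only through groups where they were high, and their changes are descriptions. Named genes were called, had a mean of at least 5 FPKM, did not overlap and had an annotation. They are the 10 highest and 10 lowest, 3 per list with the smallest adjusted p, 6 each way lying between control and Cd (Cd at least 4-fold from control), 6 each way beyond control (higher with the Cd mean under every control library, or lower with it over every one), and 3 each way beyond both single factors. Genes with a symbol called at least 2-fold could also be named. LGB1, the genes named from lists for their class, and others said to be chosen after their values were seen fall outside it. Of 156 such genes, some are left out for length. Libraries of a group were treated as separate samples. Pairs of them, compared gene by gene after division of the counts by 4, had a median chi-square of 0.552 to 0.624 (0.455 for plain read counts), but as the counts are not plain tallies this does not settle whether any share a source. Whether replicate numbers pair the libraries is not settled by the labels or by these values. Same-numbered deviations from the group means correlated at 0.0151 to 0.0564 and differently numbered ones at -0.0485 to 0.0249.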

Additional observations from a re-analysis of the deposited data

How the results depend on the processing

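For Cd+OP against control 18066 genes were called, and 16755 to 16981 when 1 library was left out, of which 15927 to 16444 were among the 18066. The replicate number as a block gave 17907 calls, 17804 of them shared, and changed no call of a gene named by the rule. The 6 libraries alone gave 18105 and DESeq2 18256. A filter at a mean of 5 FPKM, which leaves 16336 genes, gave 11402 calls, 4833 higher, with 617 higher and 854 lower at least 2-fold. With that filter, 12874 genes were called for Cd+OP against Cd, 12241 against control+OP, 13201 for Cd against control and 11494 for control+OP against control. Without a filter 2507 genes were at least 2-fold higher, and with limma on log2(FPKM + 1), which shrinks folds of low genes, 948 were higher and 827 lower. The share of calls that were higher was 50.8%, 60.5% with library totals (median of all genes 0.09), 58.9% with limma, 42.4% at 5 FPKM and 43.3 to 43.6% without any 1 control library (median -0.05); the cause of the last was not tested. The median of the ABC and MATE list went from 0.16 to -0.14 at 5 FPKM, where 34 members are left. The 156 genes named by the rule kept their direction and call under every alternative in which they were tested. The rule took only genes already called, most of them without overlap of the groups. That outcome was thus largely fixed by the rule and is a description. The 6 others named kept their direction and call too, except GLYMA_06G003200 without control replicate 1. Precision is limited by 3 libraries per group and by counts that are not plain reads, and the labels do not tell plant from technical replicates.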
